A study of Arabidopsis thaliana with 20 samples.

Results

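Cytosolic ribosomal protein genes were described here in rosette leaves of Arabidopsis thaliana: 59 loci out of 37336 in the count files, chosen from a list of locus names that covered proteins of the large subunit (32 loci), of the small subunit (22 loci) and of the stalk (4 loci), together with RACK1A. The loci belonged to 31 protein families, and 21 families were represented by at least 2 paralogues. Leaves came from the double mutant snrk2.4/snrk2.10, in which SNRK2.4 and SNRK2.10 (both encode kinases of the SnRK2 family) are disrupted, and from the wild type (WT) of ecotype Col-0, both grown in long days with no other treatment. The harvest was 45 or 25 days after sowing (DAS), which gave 4 groups of 5 libraries: mutant at 45 DAS, WT at 45 DAS, mutant at 25 DAS and WT at 25 DAS. The label of the mutant names no allele, the labels do not say how many plants or leaves went into a library, and nothing says that the 5 libraries of a group came from separately grown plants, so the p-values measure the spread between these libraries. The method, 3′ RNA sequencing, counts fragments next to the polyA tail of each transcript, so counts were not divided by transcript length.

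The cytosolic ribosome is built from a large and a small subunit, each made of ribosomal RNA and many different proteins that are needed in equal numbers. In Arabidopsis nearly every ribosomal protein is encoded by several near-identical genes, and mutants in single copies are known for pointed leaves and for embryo lethality. Ribosomes contain nitrogen and phosphorus, both of which are exported from a leaf as it senesces. Promoters of these genes are known to be rich in the site II element, which TCP transcription factors bind, and in the telo-box.

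Site II was searched as TGGGCC or TGGGCT and the telo-box by its core AAACCCTA, on both strands, in the 250 bases before each annotated gene start (RefSeq, TAIR10.1). Site II was found in 39 of the 59 promoters (66.1%), against 19.18% of 27443 protein-coding genes, and the telo-box core in 7 (11.86%), against 4.486%. Among 14191 protein-coding genes that were tested below, the shares were 23.83% and 3.474%. Among 157 further cytosolic ribosomal protein loci of the annotation they were 70.7% and 24.84%, so the telo-box was less frequent in the members. Neither motif was found in 17 member promoters (28.81%), against 77.7% of all protein-coding genes and 25.48% of the further loci. Site II was found in 68.75% of large-subunit promoters and in 54.55% of small-subunit promoters, and the telo-box in 15.62% and 9.091% of them. The last 130 bases before the gene start are shown for 6 genes on which the results below turn: both L24 genes, both S6 genes, SAG24 of the L10 family and AT3G10090 of the S28 family. They lie at chr2:15352014-15352143 (RPL24A, minus strand), chr3:19662026-19662155 (STV1, minus), chr4:15347805-15347934 (RPS6, minus), chr5:3260255-3260384 (EMB3010, minus), chr1:24838960-24839089 (SAG24, plus) and chr3:3110095-3110224 (AT3G10090, minus). Capitals mark site II on either strand, and overlapping matches run together in EMB3010.
RPL24A: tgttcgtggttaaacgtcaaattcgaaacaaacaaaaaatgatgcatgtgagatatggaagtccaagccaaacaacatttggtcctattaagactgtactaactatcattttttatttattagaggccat
STV1: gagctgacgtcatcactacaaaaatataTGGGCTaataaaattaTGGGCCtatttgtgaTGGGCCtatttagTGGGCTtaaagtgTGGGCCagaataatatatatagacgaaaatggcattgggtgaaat
RPS6: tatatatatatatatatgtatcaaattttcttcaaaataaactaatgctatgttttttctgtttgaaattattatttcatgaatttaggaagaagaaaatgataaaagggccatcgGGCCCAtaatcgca
EMB3010: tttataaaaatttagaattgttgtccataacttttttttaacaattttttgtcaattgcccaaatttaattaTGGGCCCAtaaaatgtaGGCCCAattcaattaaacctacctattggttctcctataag
SAG24: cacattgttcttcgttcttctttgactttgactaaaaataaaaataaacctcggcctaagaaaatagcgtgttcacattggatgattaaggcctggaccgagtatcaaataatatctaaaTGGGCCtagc
AT3G10090: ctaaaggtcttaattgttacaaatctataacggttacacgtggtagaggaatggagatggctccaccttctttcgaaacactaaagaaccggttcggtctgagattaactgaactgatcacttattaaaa
STV1 has 5 matches and its paralogue RPL24A none. EMB3010 has 3 matches and RPS6 has 1. SAG24 has 1 match, and AT3G10090 has neither motif in its whole window.

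Total counts per library ran from 615317 to 2343212 (median 1411810.5). Counts of SNRK2.4 summed to 17 in the mutant and 463 in WT at 45 DAS, and to 31 in the mutant and 261 in WT at 25 DAS. SNRK2.10 took 0.00393% of counts in the mutant and 0.00938% in WT at 45 DAS, and 0.00365% and 0.00498% at 25 DAS. Where the mutations lie relative to the counted transcript ends is not given in the sources used here. All 12 leaf mesophyll markers (genes for the small subunit of Rubisco and for chlorophyll-binding proteins) were detected. They took 1.14% ± 0.22 of counts in the mutant and 0.561% ± 0.44 in WT at 45 DAS, and 10.6% ± 0.13 in the mutant and 10.6% ± 0.19 in WT at 25 DAS (SD, n = 5). Of 6 shoot meristem markers, 3 had no count in any library. The 6 floral organ markers summed to 128 counts in the mutant and 59 in WT at 45 DAS, and to 44 in the mutant and 34 in WT at 25 DAS; AP1 had none. The 1 that was tested, SEP1, was higher in the mutant than in WT at 45 DAS (1.86 ± 0.48, edgeR adjusted p = 0.014) and higher at 45 than at 25 DAS in the mutant (1.20 ± 0.43, adjusted p = 0.016), and its part in the results was not tested. One library stood apart for the senescence protease gene SAG12. In WT at 45 DAS, replicate 5 had its highest share (1.82% of counts, against 0.101% to 0.383% in the other 4). Replicate 5 also had the lowest share of mesophyll markers (0.196%, against 0.357% to 1.33%). For these markers it was replicate 1 that lay far from the rest of the group, at 1.33%, against a median of 0.409%.

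Ribosomal protein transcripts made up a smaller part of the library at 45 DAS than at 25 DAS in both genotypes. In the mutant, the 59 loci took 0.660%, 0.7096%, 0.644%, 0.626% and 0.654% of all counts at 45 DAS, against 1.75%, 1.66%, 1.68%, 1.86% and 1.85% at 25 DAS. In WT they took 0.662%, 0.703%, 0.688%, 0.649% and 0.464% at 45 DAS, against 1.47%, 1.54%, 1.56%, 1.57% and 1.70% at 25 DAS. The ages did not overlap in either genotype, and the lowest value was that of WT replicate 5 at 45 DAS. In such whole-leaf samples, fewer cells of a type and less RNA per cell cannot be told apart. The mesophyll markers moved the same way, as given above, and their part in the result was not tested.

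The split between the subunits stayed within a narrow range while the total fell. Large-subunit genes held 57.7% ± 0.42 of the counts of all 59 loci in the mutant and 58.5% ± 0.60 in WT at 45 DAS, and 57.4% ± 0.44 in the mutant and 57.0% ± 0.61 in WT at 25 DAS (SD, n = 5). In the mutant the ages overlapped for the large subunit, and in WT they did not (57.72% to 59.36% at 45 DAS, against 55.98% to 57.48% at 25 DAS). Small-subunit genes held 36.2% ± 0.42 and 35.4% ± 0.52 in mutant and WT at 45 DAS, and 35.3% ± 0.42 and 35.8% ± 0.52 at 25 DAS. The share of the stalk genes was lower at the later age, at 4.38% ± 0.32 in the mutant and 4.39% ± 0.16 in WT at 45 DAS, against 5.67% ± 0.11 in the mutant and 5.66% ± 0.13 in WT at 25 DAS. The highest stalk share at 45 DAS was 4.638% and the lowest at 25 DAS was 5.520%, so the ages did not overlap. These class sums are descriptions with no test.

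**Figure D1:**
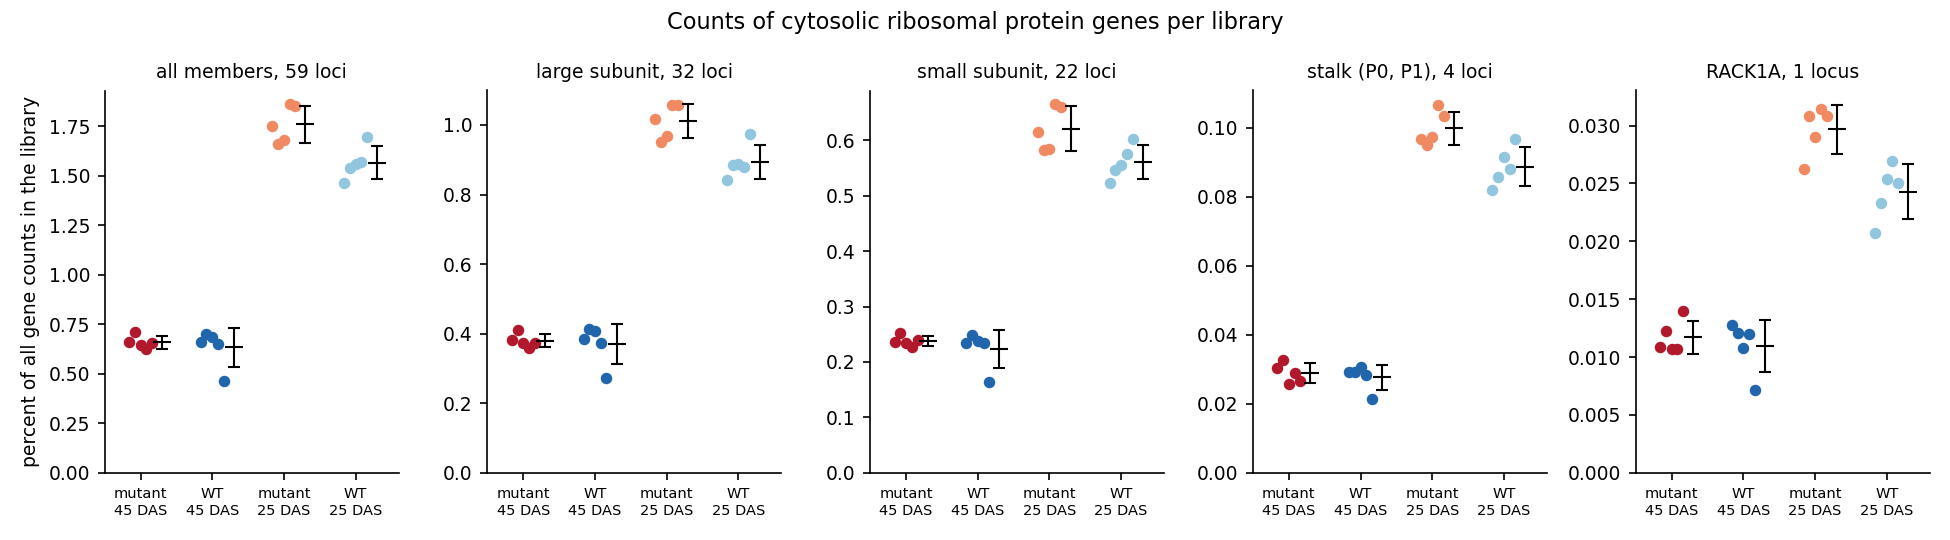
Percent of all gene counts of a library held by the 59 ribosomal protein loci and by each class, on linear axes from 0; coloured points are single libraries, and black bars are the mean ± SD of 5. All 10 libraries at 45 DAS lie below all 10 at 25 DAS for the whole set (at most 0.7096%, against at least 1.47%), and WT replicate 5 is the lowest point at 45 DAS.

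Gene by gene, 57 of the 59 loci passed the filter on low counts. The other 2 were AT2G40010, a gene for the stalk protein P0 with 112 counts over all 20 libraries, and RPSAb, a gene for the small-subunit protein Sa with 150. In the mutant, 57 of 57 tested members fell between 25 and 45 DAS (edgeR quasi-likelihood test, Benjamini-Hochberg adjusted p under 0.05 over 14503 genes), where 34.6% of all tested genes fell. In WT, 56 of 57 fell, where 34.5% of all tested genes fell. The median log2 fold change of the members was -2.24 in the mutant and -2.11 in WT, against 0.06 and 0.07 for all tested genes. Values of 56 members in the mutant and 55 in WT were lower in every library at 45 DAS than in any at 25 DAS, which held for 29.5% and 28.6% of all tested genes. With library totals alone and no scaling factors, the medians of the members were -1.55 and -1.44 and those of all tested genes were 0.75 and 0.72.

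Median changes of the classes lay close together. The median log2 fold change was -2.25 in the mutant and -2.14 in WT over 32 large-subunit genes, and -2.06 and -2.04 over 21 small-subunit genes. It was -2.38 and -2.41 over 3 stalk genes. RACK1A (listed as ATARCA), a WD40 scaffold at the head of the small subunit, changed by -2.04 ± 0.12 in the mutant and -1.81 ± 0.12 in WT (log2 fold change ± SE). The stalk protein gene AT1G01100 (P1, an acidic protein that recruits elongation factors) changed by -2.38 ± 0.12 and -2.41 ± 0.12. P40, the abundant gene of family Sa, changed by -2.39 ± 0.11 and -2.24 ± 0.11. For 49 of 57 members the change was more negative in the mutant than in WT, so that the difference was above 0 in 8 of 57, against 51.2% of all tested genes, and only 1 of these differences passed the interaction test described below. Members with site II had median changes of -2.21 in the mutant and -2.04 in WT (38 tested), and members without it -2.385 and -2.188 (19 tested).

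The members with the largest falls were the same in both genotypes: AT5G60670, RPS6 and RPL24A. AT5G60670 encodes L12, which anchors the base of the stalk. Its level was 10.96, 15.0, 12.5, 16.0 and 14.5 CPM (counts relative to the library total after TMM scaling) in the mutant at 45 DAS, against 172, 177, 183, 189 and 179 at 25 DAS. In WT they were 27.7, 14.2, 14.4, 13.2 and 8.84 CPM at 45 DAS, against 140, 153, 160, 149 and 137 at 25 DAS. Each library at 45 DAS was far below each at 25 DAS, and the log2 fold changes were -3.70 ± 0.18 in the mutant and -3.23 ± 0.18 in WT (edgeR adjusted p = 2.55e-15 and 2.62e-14).

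RPS6 encodes S6, the small-subunit protein phosphorylated by S6 kinase downstream of the TOR kinase. It had 27.96, 44.9, 29.9, 29.7 and 50.2 CPM in the mutant at 45 DAS, against 368, 380, 322, 366 and 379 CPM at 25 DAS. In WT it had 31.0, 31.6, 24.1, 33.5 and 28.7 CPM at 45 DAS, against 281, 282, 293, 293 and 317 CPM at 25 DAS. The ages were clearly apart, with log2 fold changes of -3.33 ± 0.14 in the mutant and -3.29 ± 0.15 in WT (edgeR adjusted p = 4.98e-16 and 8.32e-16). Its paralogue EMB3010, whose loss is embryo lethal, had 99.2, 98.3, 103, 107 and 107 CPM in the mutant at 45 DAS, against 365, 389, 333, 370 and 373 CPM at 25 DAS. In WT EMB3010 had 102, 103, 98.7, 112 and 72.9 CPM at 45 DAS, against 330, 301, 328, 323 and 354 CPM at 25 DAS. EMB3010 fell as well, without overlap of the ages, but by less: -1.83 ± 0.11 in the mutant and -1.75 ± 0.11 in WT.

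The L24 pair behaved in the same way. RPL24A had 35.1, 54.3, 25.8, 29.7 and 50.2 CPM in the mutant at 45 DAS, against 331, 345, 341, 333 and 351 CPM at 25 DAS. In WT RPL24A had 39.1, 29.2, 28.9, 36.2 and 20.6 CPM at 45 DAS, against 302, 327, 299, 287 and 317 CPM at 25 DAS. The log2 fold changes were -3.12 ± 0.17 in the mutant and -3.31 ± 0.18 in WT, with no overlap of the ages. STV1 (SHORT VALVE1), the other L24 gene, is known for its role in re-initiation of translation after upstream open reading frames. STV1 had 120, 119, 128, 125 and 106 CPM in the mutant at 45 DAS, against 373, 318, 344, 369 and 350 CPM at 25 DAS. In WT STV1 had 113, 118, 92.7, 101 and 86.2 CPM at 45 DAS, against 291, 300, 314, 286 and 306 CPM at 25 DAS. STV1 changed by -1.55 ± 0.10 in the mutant and by -1.55 ± 0.11 in WT, again with the ages apart.

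**Figure D2:**
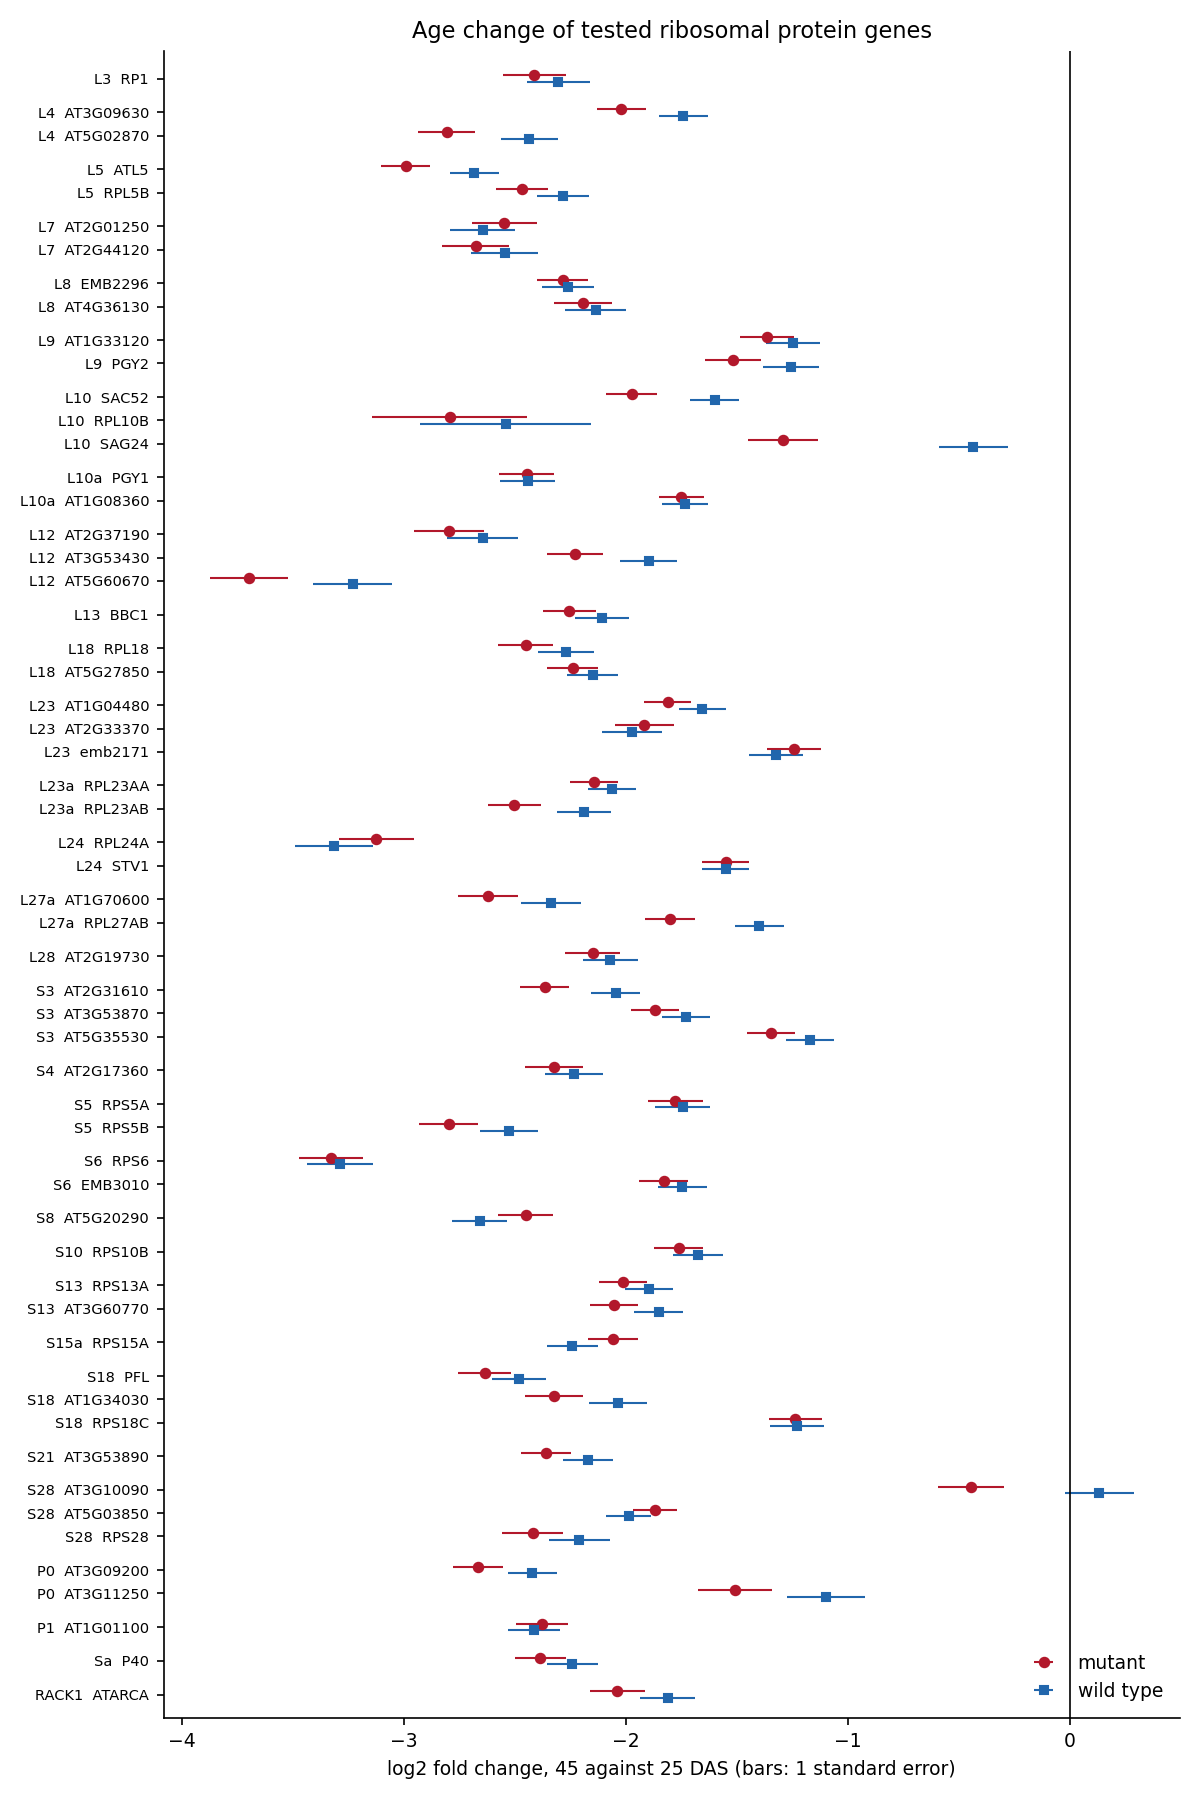
Log2 fold change between 45 and 25 DAS of the 57 tested members, grouped by protein family; red circles are the mutant, blue squares WT, and bars 1 standard error. Every point but that of AT3G10090 in WT (0.13) lies left of 0, and paralogues of L24, S6, L12, L10, S18 and S28 lie far apart.

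At the other end stood AT3G10090 in both genotypes, followed by SAG24 in WT and by RPS18C and emb2171 in the mutant. emb2171, an L23 gene, averaged 454 ± 36.8 CPM in the mutant at 45 DAS, against 1074 ± 40.4 CPM at 25 DAS, and 394 ± 59.7 CPM in WT at 45 DAS, against 986 ± 43.1 CPM at 25 DAS (SD, n = 5). Both it and RPS18C, an S18 gene, had a log2 fold change of -1.24 ± 0.12 in the mutant, and in WT the values were -1.32 ± 0.12 and -1.23 ± 0.12. AT3G10090, a gene for the small-subunit protein S28, had 46.5, 39.4, 54.2, 52.9 and 51.6 CPM in WT at 45 DAS, against 52.2, 44.6, 40.5, 38.9 and 45.7 CPM at 25 DAS. The ages overlapped, and the log2 fold change of 0.13 ± 0.15 did not pass the test (edgeR adjusted p = 0.445). In the mutant it had 31.2, 50.0, 45.7, 43.9 and 42.3 CPM at 45 DAS, against 50.6, 52.5, 47.1, 61.1 and 77.1 CPM at 25 DAS. These overlapped as well, but the log2 fold change of -0.44 ± 0.15 passed (edgeR adjusted p = 0.0104), though not without replicate 5 of the mutant at 25 DAS (-0.31, edgeR adjusted p = 0.0641). With no scaling factors the change was 0.24 in the mutant and 0.79 in WT, where it then passed as a rise (edgeR adjusted p = 6.4e-05). The other S28 genes fell in both genotypes, AT5G03850 with log2 fold changes of -1.87 in the mutant and -1.99 in WT, and RPS28 with -2.42 and -2.21.

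SAG24 (AT1G66580, chr1:24839090-24840806, plus strand), named as a senescence-associated gene, encodes L10, a large-subunit protein that in yeast joins late in the maturation of the subunit. SAG24 had 99.2, 75.6, 102, 87.9 and 75.3 CPM in the mutant at 45 DAS, against 184, 239, 217, 214 and 226 CPM at 25 DAS. In WT SAG24 had 87.2, 181, 142, 125 and 194 CPM at 45 DAS, against 201, 191, 206, 184 and 207 CPM at 25 DAS. In the mutant the ages did not overlap, whereas the highest WT library at 45 DAS lay within the range of 25 DAS. The log2 fold change was -1.29 ± 0.16 in the mutant (edgeR adjusted p = 6.28e-08) and -0.43 ± 0.15 in WT (edgeR adjusted p = 0.0144). In WT it was 0.22 with no scaling factors (edgeR adjusted p = 0.192), and it did not pass on thinned counts (-0.31, edgeR adjusted p = 0.124) or with only the WT libraries in the fit (-0.39, edgeR adjusted p = 0.0697). The other L10 genes fell too, SAC52 with log2 fold changes of -1.97 in the mutant and -1.60 in WT, and RPL10B with -2.79 and -2.54. RPL10B rested on few counts, 22 in the mutant and 16 in WT over the 5 libraries at 45 DAS.

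**Figure D3:**
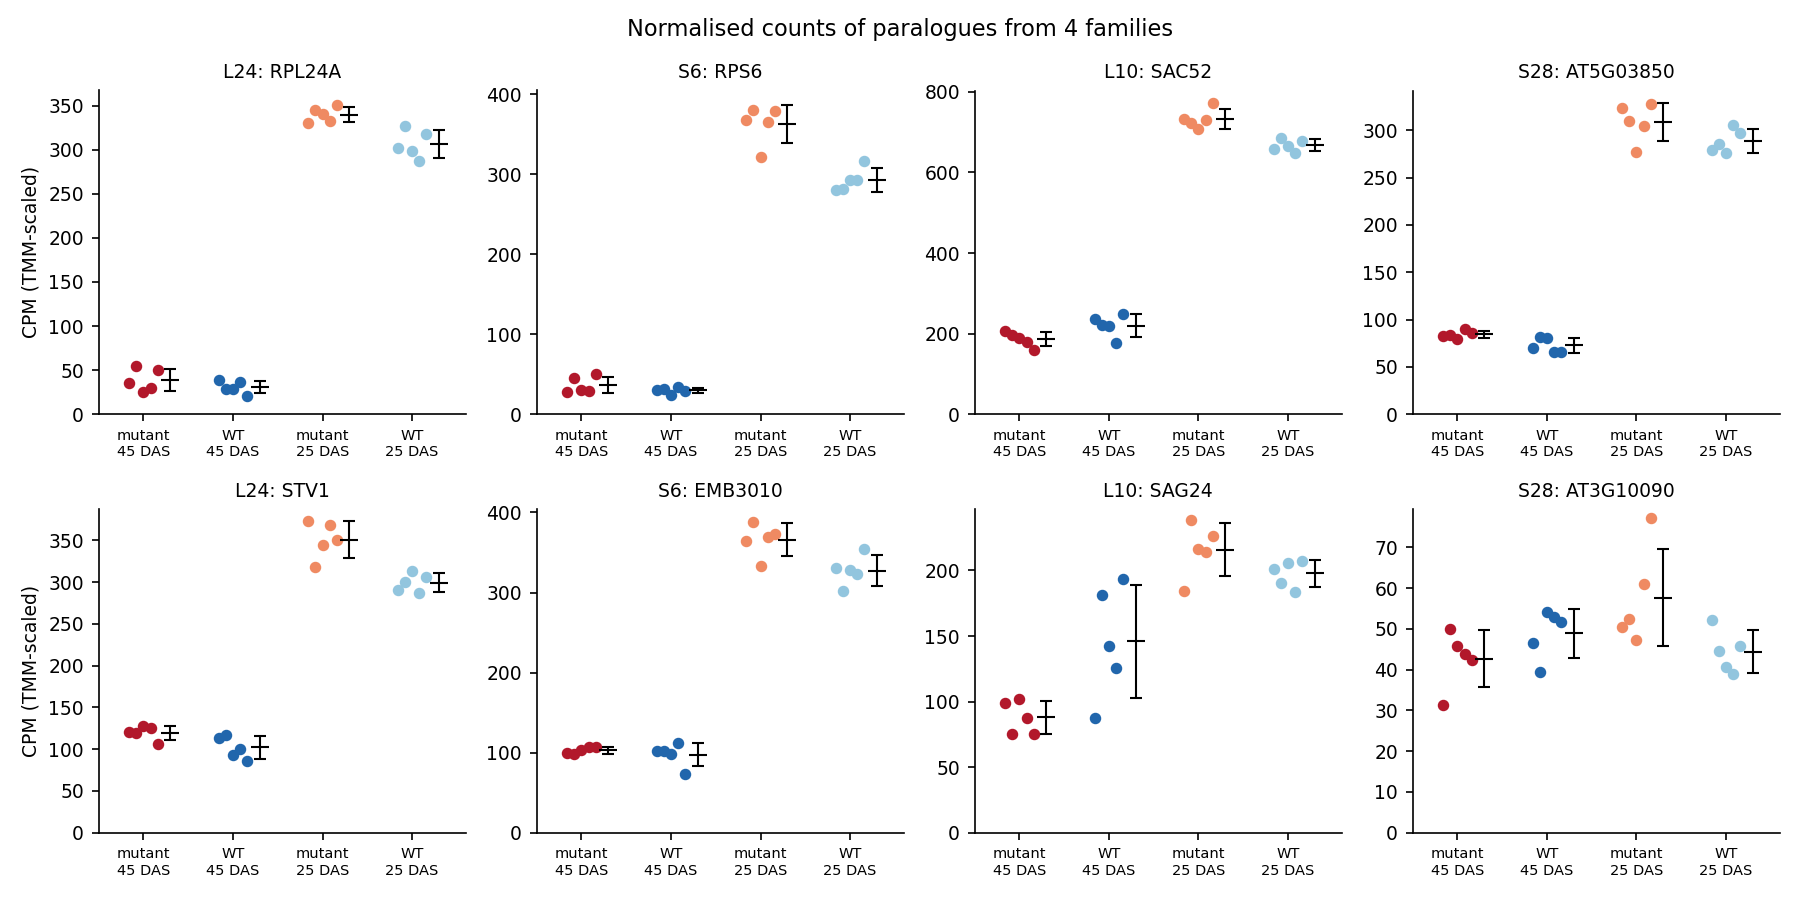
Normalised counts (CPM, linear axes from 0) of 4 pairs of paralogues, each pair in a column; points are libraries and black bars the mean ± SD of 5. RPL24A and RPS6 are near the bottom of their axes at 45 DAS (20.6 to 54.3 CPM), while AT3G10090 overlaps between the ages and SAG24 at 45 DAS is spread from 87.2 to 194 CPM in WT.

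Within families, the make-up of the transcripts shifted with age. The member with the most counts over all libraries was followed as a share of the counts of its family, which does not depend on the scaling of libraries. The share differed between 45 and 25 DAS in 14 of 21 families in the mutant and in 13 in WT (two-sided exact permutation tests, Benjamini-Hochberg adjusted p under 0.05 over 84 tests). It did so in both genotypes in 12 families, with the same direction in all 12: L4, L5, L10, L10a, L12, L23, L24, L27a, S5, S6, S18 and P0. Each of these tests reached the smallest p that the arrangements allow (exact permutation p = 0.00794, adjusted p = 0.0238). The share also passed for L23a and Sa in the mutant and for S28, followed through AT5G03850, in WT. In families L7, L8, L9, L18, S3 and S13 the share of the most-counted member passed in neither genotype, with changes between -2.89 and 3.71 percentage points. This measure does not follow the other members of a family of 3. In S3, picked out after its values were seen and given no test, AT5G35530 held 29.9% ± 1.9 in the mutant at 45 DAS, against 20.8% ± 0.72 at 25 DAS, and 30.3% ± 1.9 in WT, against 21.3% ± 1.3. AT2G31610 of S3 held 22.7% ± 1.9 in the mutant at 45 DAS, against 31.9% ± 1.1 at 25 DAS, and 23.8% ± 3.6 in WT, against 30.8% ± 1.1. The ages did not overlap for either gene in either genotype. The other S28 genes, likewise picked out afterwards and given no test, shifted in both genotypes. AT3G10090 held 26.9% ± 2.9 in the mutant at 45 DAS, against 10.8% ± 1.8 at 25 DAS. In WT it held 31.7% ± 4.4, against 9.13% ± 1.1. RPS28 held 19.3% ± 3.4 in the mutant, against 31.2% ± 2.9, and 21.4% ± 2.4 in WT, against 31.5% ± 1.3. For these S28 genes too the ages did not overlap.

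By the share of the most-counted member, the largest shifts were those of L24, S6 and S18. STV1 held 75.6% ± 7.0 of L24 counts in the mutant at 45 DAS, against 50.8% ± 2.1 at 25 DAS, and 77.0% ± 3.3 in WT at 45 DAS, against 49.4% ± 1.2 at 25 DAS (SD, n = 5). EMB3010 held 74.1% ± 5.3 of S6 counts in the mutant at 45 DAS, against 50.2% ± 0.51 at 25 DAS, and 76.5% ± 3.1 in WT, against 52.7% ± 0.88. In both of these gene pairs the share by arithmetic moved toward the gene with the smaller age change. RPS18C held 56.3% ± 4.2 of S18 counts in the mutant at 45 DAS, against 34.9% ± 1.4 at 25 DAS, and 52.9% ± 2.6 in WT, against 35.4% ± 1.2. PFL (POINTED FIRST LEAF), an S18 gene whose mutants have pointed leaves, held less of the family at the later age, at 23.1% ± 2.4 in the mutant at 45 DAS, against 37.9% ± 1.7 at 25 DAS, and 24.3% ± 3.7 in WT, against 38.0% ± 0.48.

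The L5 gene ATL5, whose protein binds the 5S ribosomal RNA, was among the members with the smallest p in both genotypes. It averaged 66.1 ± 7.2 CPM in the mutant at 45 DAS, against 525.8 ± 28.6 CPM at 25 DAS, and 72.0 ± 7.3 CPM in WT, against 462 ± 13.1 CPM. Its log2 fold changes were -2.99 ± 0.11 and -2.68 ± 0.11 (edgeR adjusted p = 5.83e-17 and 2.27e-16), those of its paralogue RPL5B -2.47 and -2.28, and its share of the family was lower at the later age, 52.3% in the mutant, against 60.9%, and 53.3% in WT, against 59.9%. In each of L4, L10a and L27a, the gene with the larger share at 25 DAS fell further than its paralogue, which restates its lower share at 45 DAS. For L4 the log2 fold changes were -2.81 in the mutant and -2.44 in WT for AT5G02870, and -2.02 and -1.74 for AT3G09630. For L10a they were -2.45 and -2.44 for PGY1, and -1.75 and -1.73 for AT1G08360. For L27a they were -2.62 and -2.34 for AT1G70600, and -1.80 and -1.40 for RPL27AB. In L23 it was the reverse: emb2171, the gene with the largest share, changed least, and AT1G04480 (-1.81 and -1.65) and AT2G33370 (-1.92 and -1.97) changed more.

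By the same measure, other families shifted by less than L24 and S6. RPS5A, known for strong expression in dividing cells, held 85.3% of S5 counts in the mutant at 45 DAS, against 73.8% at 25 DAS, and 82.5% in WT, against 73.4%. Its paralogue RPS5B fell further, with log2 fold changes of -2.80 ± 0.13 in the mutant and -2.53 ± 0.13 in WT, against -1.78 and -1.74 for RPS5A. The third S18 gene, AT1G34030, changed by -2.32 and -2.04, the second L12 gene, AT2G37190, by -2.80 and -2.64, and the L23a genes RPL23AA and RPL23AB by -2.14 and -2.06 and by -2.50 and -2.19. The L12 gene AT3G53430 held 67.7% in the mutant at 45 DAS, against 52.6% at 25 DAS, and 67.2% in WT, against 50.9%. PGY1, an L10a gene with a role in leaf polarity, held a smaller share at the later age, 46.6% in the mutant, against 58.5% at 25 DAS, and 44.8% in WT, against 57.1%. AT3G09200, the main gene for the stalk scaffold P0, held 84.9% in the mutant at 45 DAS, against 91.7% at 25 DAS, and 83.2% in WT, against 92.04%. The rest of the P0 counts came mostly from AT3G11250, with log2 fold changes of -1.51 in the mutant and -1.10 in WT, against -2.67 and -2.42 for AT3G09200. AT3G09200 overlaps AT3G09210, which has 2051 counts and the same orientation, and reads in the overlap cannot be assigned with certainty. Over the 35 pairs of paralogues, the longest identical run within the last 500 transcribed bases was 8 to 57 bases, with a median of 23.

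**Figure D4:**
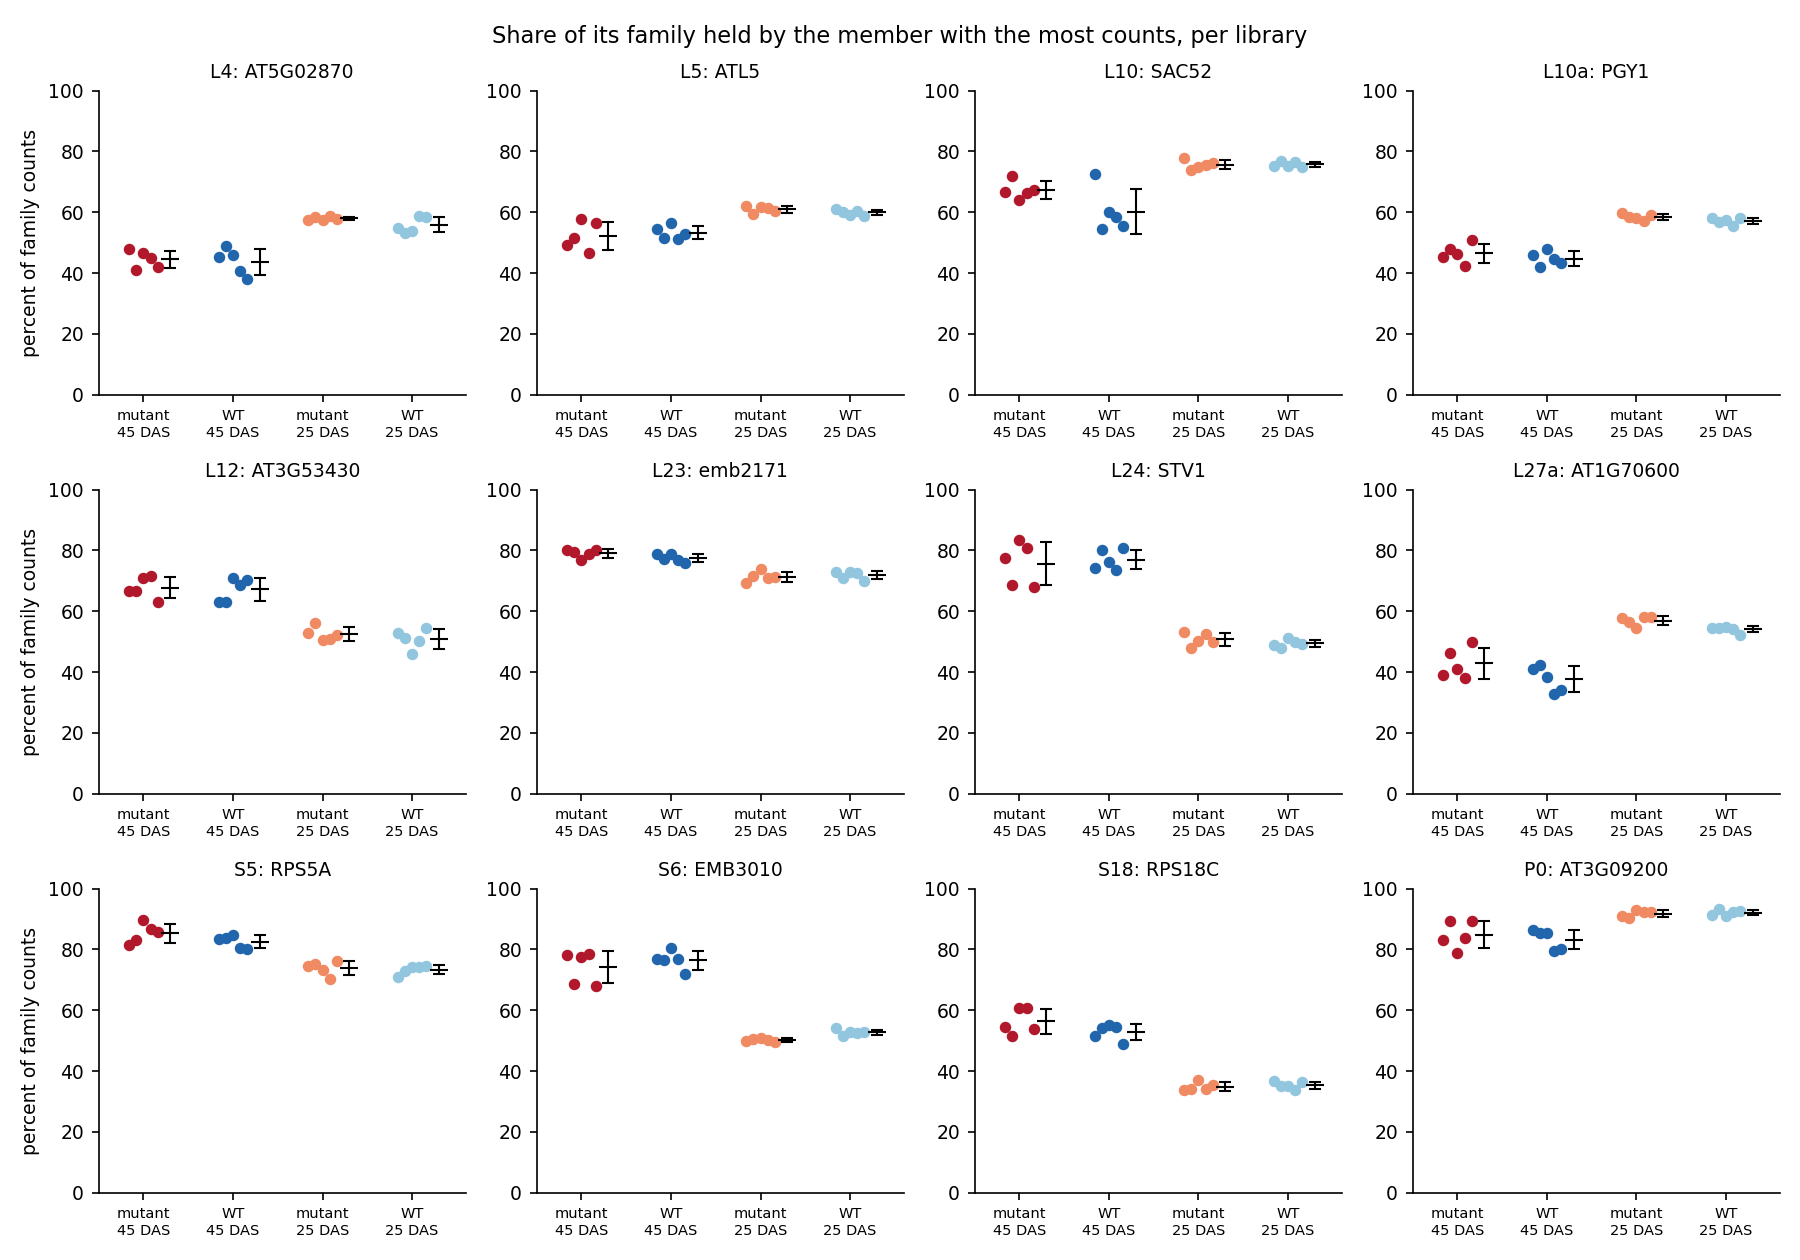
Share of its family's counts held by the member with the most counts, in the 12 families that passed in both genotypes; points are libraries, bars the mean ± SD of 5, and axes run from 0 to 100%. In each panel and genotype all libraries at 45 DAS lie on one side of all libraries at 25 DAS; STV1 moves furthest, to 77.0% in WT at 45 DAS, against 49.4% at 25 DAS.

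Between the genotypes at 45 DAS, 1 of 57 tested members differed: SAG24 was lower in the mutant, where 4.88% of all tested genes were lower and 9.93% differed in either direction. Its mean was 88.0 ± 12.7 CPM in the mutant and 146 ± 43.1 CPM in WT (SD, n = 5), a log2 fold change of -0.73 ± 0.16 (edgeR adjusted p = 0.00396). The groups overlapped, since WT replicate 1, at 87.2 CPM, lay inside the range of the mutant (75.3 to 102 CPM). The 5 WT libraries, ordered from high to low SAG24 (replicates 5, 2, 3, 4 and 1), were in rising order of their mesophyll marker share (0.196%, 0.357%, 0.409%, 0.516% and 1.33%). This order was picked out after its values were seen, was not tested, and is not shown for the mutant. Of 12 mesophyll markers 4 were higher in the mutant and none lower, and of 7 senescence markers 3 were lower (SAG12, BFN1 and SAG13) and none higher; their part in the result was not tested. With only the libraries of 45 DAS in the fit the call was lost (-0.72, edgeR adjusted p = 0.0589). SAG24 lies 2.4 Mb from SNRK2.10 and 21.2 Mb from SNRK2.4 on chromosome 1, and a part of its position in the call was not tested. At 25 DAS its log2 difference between mutant and WT was 0.13 ± 0.15 (edgeR adjusted p = 0.756).

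The remaining members stood close together at 45 DAS. Their median log2 difference, SAG24 included, was 0.06, against 0.00 for all tested genes, and 41 of 57 lay above 0, against 50.1% of all tested genes. An unadjusted p under 0.05 was reached by 5 members, against 23.1% of all tested genes. No member was called higher in the mutant by edgeR, where 5.05% of all tested genes were. DESeq2 called 1, where 3.67% of all genes it tested were called higher. In no member were all mutant libraries above or all below the WT libraries, which held for 2.98% and 3.04% of all tested genes. The largest positive differences were those of AT5G20290 (S8), at 0.34 ± 0.12 (edgeR adjusted p = 0.0749), RPL24A, at 0.34 ± 0.18 (adjusted p = 0.266), and AT2G01250 (L7), at 0.27 ± 0.15 (adjusted p = 0.275). The most negative after SAG24 were SAC52, at -0.24 ± 0.11 (edgeR adjusted p = 0.192), and AT3G10090, at -0.19 ± 0.15 (adjusted p = 0.505). Without WT replicate 1 at 45 DAS, 3 members were called higher, and the share of all tested genes in that fit is not given here.

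At 25 DAS, no member passed the test by edgeR in the main comparison, where 3.16% of all tested genes did. The log2 differences between mutant and WT were small and of one sign. They ranged from 0.00 to 0.41 with a median of 0.19, above 0 in 57 of 57 members, against a median of 0.03 and 54.5% above 0 for all tested genes. In 23 members every mutant library was above every WT library, which held for 4.36% of all tested genes, and 17 had an unadjusted p under 0.05, which held for 16.3%. Other lists of translation genes, described below, leaned the same way. Of 139 tested further cytosolic ribosomal protein loci, 135 lay above 0 (median 0.18). So did 36 of 40 initiation and elongation factors (median 0.17) and 23 of 30 biogenesis factors (median 0.18). Among genes for plastid ribosomal proteins 28 of 30 did (median 0.06), and 3 of 8 in the TOR and S6 kinase pathway. Members of 1 family, or of 1 library, are not independent, and these counts carry no test of their own.

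The highest differences at 25 DAS were those of AT1G70600, AT5G02870 and AT3G10090. AT1G70600, a gene for L27a, had 588, 539, 536, 547 and 554 CPM in the mutant, against 396, 419, 420, 408 and 435 CPM in WT. The groups did not overlap, and the log2 difference was 0.41 ± 0.13 (edgeR adjusted p = 0.072). AT5G02870, a gene for the exit-tunnel protein L4, had 412, 406, 361, 405 and 402 CPM in the mutant, against 260.5, 310, 269, 323 and 343 CPM in WT. These did not overlap either, with a log2 difference of 0.40 ± 0.12 (edgeR adjusted p = 0.0586). The difference of AT3G10090 was 0.39 ± 0.15 (edgeR adjusted p = 0.174). At the low end, AT2G33370 (L23) stood at 0.00 ± 0.12 (below 0 in 21 of 30 alternatives, so that the count of 57 above 0 rests on it), RPS15A at 0.05 ± 0.11 and the P1 gene AT1G01100 at 0.06 ± 0.11.

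The number of members that passed at 25 DAS differed between fits. With only the 25 DAS libraries in the fit, 13 members were called higher, with DESeq2 9, and with a variance per group in voom 7. Of all genes those fits tested, 4.29%, 2.45% and 3.48% were called higher, and 9.15%, 5.03% and 6.80% in either direction. None was called lower. The 3 fits shared 6 members: AT1G70600, AT5G02870, RPL23AB (L23a), RPL18, AT3G09200 (P0) and RACK1A, whose log2 differences lay between 0.25 and 0.41 in these fits. The share of all genes called by all 3 fits is not given here.

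**Figure D5:**
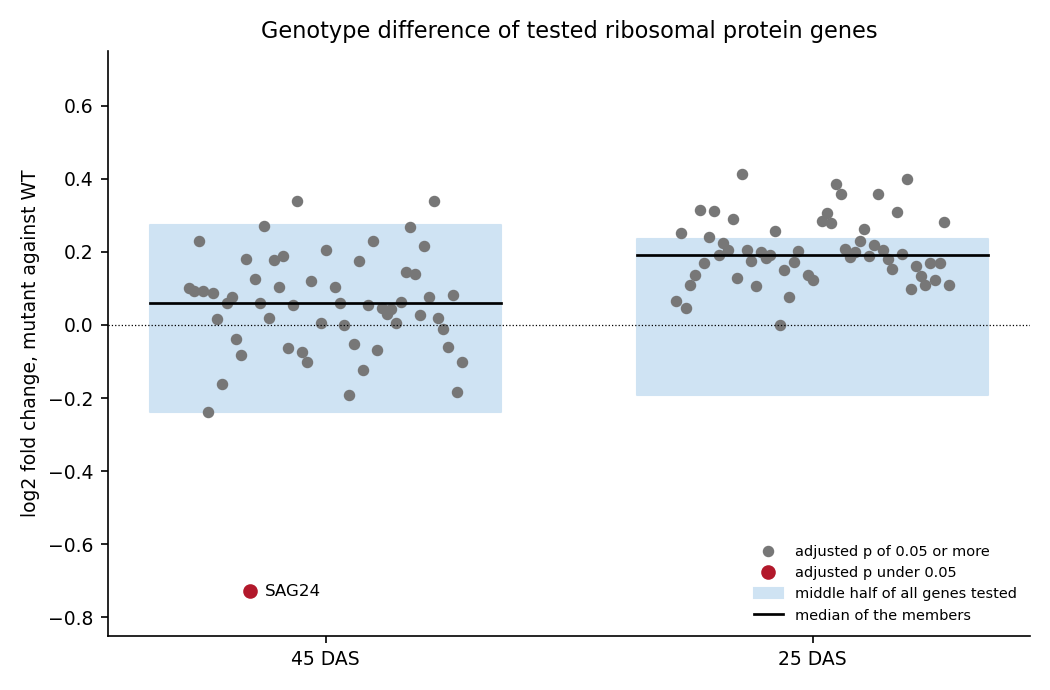
Log2 difference between mutant and WT of the 57 tested members at 45 and at 25 DAS; each point is a gene, the black line is the median of the members, and the blue band is the interquartile range of all 14503 tested genes. At 45 DAS the points straddle 0 with SAG24 (-0.73) far below the next lowest, SAC52 (-0.24), and at 25 DAS no point lies below 0 (median 0.19).

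Family shares passed the test between genotypes in few families. At 45 DAS the S28 gene AT5G03850 held 53.8% ± 4.6 of its family's counts in the mutant and 47.0% ± 3.0 in WT (exact permutation p = 0.0159, adjusted p = 0.0444), the only one of 21 families past the threshold. At 25 DAS EMB3010 held 50.2% of S6 counts in the mutant and 52.7% in WT (exact permutation p = 0.00794, adjusted p = 0.0238), and AT1G70600 held 56.9% of L27a counts in the mutant and 54.0% in WT (exact permutation p = 0.0159, adjusted p = 0.0444). The call at 45 DAS was lost when any 1 of 7 libraries was left out, and on thinned counts. These 3 differences were 6.89, -2.53 and 2.92 points, and those between ages reached 27.6 points.

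The test of whether the age change differed between genotypes called 1 of 57 members, SAG24, where 1.37% of all tested genes were called in that direction and 3.21% in either. The difference of the age changes was -0.86 ± 0.22 on the log2 scale (edgeR adjusted p = 0.0305). An unadjusted p under 0.05 was reached by 6 members, against 17.3% of all tested genes. The difference for SAG24 was between -1.02 and -0.67 over all alternatives, and its adjusted p exceeded 0.05 in 10 of the 20 fits that left out a single library (edgeR adjusted p up to 0.0797). The next most negative differences were those of AT3G10090, at -0.58 ± 0.21 (edgeR adjusted p = 0.149), and AT5G60670, at -0.47 ± 0.25 (adjusted p = 0.355). The most positive were those of AT5G20290, at 0.21 ± 0.17, RPL24A, at 0.19 ± 0.23, and RPS15A, at 0.18 ± 0.16, with edgeR adjusted p between 0.572 and 0.741.

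Other genes of the translation machinery were compared by lists. Of 139 tested loci among 157 further cytosolic ribosomal protein loci of the annotation, 135 fell with age in the mutant and 132 in WT, with medians of -2.10 and -2.06. Of all tested genes, 34.6% fell in the mutant and 34.5% in WT. Among the 139, AT5G39850 rose in WT, with 46.0 ± 12.1 CPM at 45 DAS, against 8.46 ± 3.6 CPM at 25 DAS (log2 fold change 2.51 ± 0.23), and AT3G02190 rose too (0.78 ± 0.18). AT4G17390 and AT1G77940 had the smallest p among those that fell in WT (-3.35 ± 0.13 and -3.06 ± 0.12). At 45 DAS 2 of the 139 were higher in the mutant (AT3G02560, 0.50 ± 0.14, and AT3G24830, 0.40 ± 0.13) and 1 lower (AT2G04390, -0.44 ± 0.13). Of all tested genes, 5.05% were higher in the mutant at 45 DAS and 4.88% lower. The RACK1 paralogues fell as well, RACK1B with log2 fold changes of -3.20 in the mutant and -2.79 in WT, and RACK1C with -4.02 and -3.65. All 30 tested genes for plastid ribosomal proteins fell in both genotypes, with medians of -3.29 in the mutant and -3.72 in WT, among them EMB3113 (-3.86 ± 0.18 in WT). At 45 DAS 8 of these 30 were higher in the mutant and none lower, among them RPL12-A (0.72 ± 0.18) and PRPS20, with 51.9 ± 8.0 CPM in the mutant and 32.1 ± 8.4 CPM in WT.

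Genes that make or use ribosomes had smaller median changes with age. Of 30 tested biogenesis factors, 27 fell and 2 rose in the mutant, and 23 fell and 1 rose in WT, with medians of -1.17 and -0.73. Of all tested genes, 34.6% fell and 35.4% rose in the mutant, and 34.5% fell and 36.1% rose in WT. With no scaling factors 16 of the 30 fell and 2 rose in the mutant, where 21.7% of all tested genes fell and 57.2% rose. In WT 10 then fell and 6 rose, where 22.7% fell and 55.9% rose. AT2G27200 rose in WT (3.13 ± 0.42). At 45 DAS 1 of the 30, AT5G15550, was lower in the mutant (-0.62 ± 0.18), where 4.88% of all tested genes were lower. NAP57, the dyskerin pseudouridine synthase, had a log2 fold change of -1.65 in WT, and FIB2, a fibrillarin, of -2.43. Of 40 initiation and elongation factors, 34 fell and 4 rose in the mutant, and 29 fell and 5 rose in WT, with medians of -0.90 and -0.84. The shares of all tested genes with TMM scaling are those given above. With no scaling factors 15 of the 40 fell and 6 rose in the mutant, and 13 fell and 13 rose in WT, beside the shares given above for that setting. The eEF1A gene AT5G60390 had 355 ± 35.1 CPM in WT at 45 DAS, against 1356 ± 111 CPM at 25 DAS, while the eIF5A gene ELF5A-1 had 37.5 ± 5.9 CPM, against 11.8 ± 3.6 CPM. AT4G27130 rose as well in WT (1.73 ± 0.17), and AT5G19510 fell (-2.33 ± 0.11). At 45 DAS 1 of the 40 was higher in the mutant, eEF-1Bb1 (0.31 ± 0.10, edgeR adjusted p = 0.0478), and 2 were lower, EIF4A-2 (-0.71 ± 0.13, adjusted p = 0.00133) and ELF5A-3 (-0.77 ± 0.17, adjusted p = 0.00491). Of all tested genes, 5.05% were higher in the mutant at 45 DAS and 4.88% lower.

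Most genes of the TOR and S6 kinase pathway rose with age. Of 8 genes, 7 rose and 1 fell in the mutant, where 35.4% of all tested genes rose, and 6 rose and none fell in WT, where 36.1% rose. With no scaling factors 7 rose in each genotype, where 57.2% and 55.9% of all tested genes rose. TOR had 30.4 ± 5.5 CPM in WT at 45 DAS, against 10.5 ± 2.5 CPM at 25 DAS (log2 fold change 1.48 ± 0.21), and its change in the mutant was 0.68 ± 0.20. TCTP, a translationally controlled tumour protein, rose by 0.80 ± 0.13 in both genotypes. PK1, an S6 kinase gene, fell in the mutant (-1.20 ± 0.17, edgeR adjusted p = 8.68e-07), and in WT its change was -0.37 ± 0.18 (adjusted p = 0.0763). Of 10 dividing-cell markers, 3 were tested, and all 3 fell in both genotypes, where 34.6% of all tested genes fell in the mutant and 34.5% in WT. The 10 summed to 20 counts in the mutant and 9 in WT at 45 DAS, and to 381 in the mutant and 352 in WT at 25 DAS. Their part in the change of the ribosomal protein genes was not tested.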

How the data were processed

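The authors deposited raw counts, whole numbers with no normalization, in 1 file for each library. Reads were aligned with STAR 2.7.8a to TAIR10, per the submitters' processing notes. The counting tool, the use of strand and whether molecular identifiers were collapsed are not given in the sources used here. Of 37336 loci, 37051 (99.24%) matched the RefSeq TAIR10.1 annotation, which gave symbols, promoters and overlaps. In all, 14 members overlap another annotated locus, and their reads cannot be assigned with certainty.

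All 20 libraries entered 1 edgeR 4.0.16 model (R 4.3.3, limma 3.58.1) with a mean per group, genes filtered by filterByExpr, TMM scaling and robust quasi-likelihood tests. P-values were adjusted by the Benjamini-Hochberg method over 14503 genes in each of 5 comparisons, at a threshold of 0.05. Shares within families were compared by exact permutation (Python 3.11.15, SciPy 1.17.1, NumPy 2.4.6, pandas 2.3.3; figures matplotlib 3.10.9). The scripts were tested on simulated data. No 2 libraries held identical counts. Low-count intervals are limited by depth: a count of 0 allows up to 3 counts, for counting error only.

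The members, lists and tests were chosen with earlier results of these data known. The list of 157 further loci was drawn from the annotation after the files were seen. Named are, per comparison, the 3 members with the highest and the 3 with the lowest log2 fold change, up to 6 called members with the smallest p, members of families whose share passed, and the L10, S6, P0, P1 and RACK1A genes. From the other lists the 2 called genes with the smallest p in each direction were named, for the age change in WT and the genotypes at 45 DAS. The S3 genes, RPL18, PK1, SEP1 and the senescence markers were named after their values were seen. The order of the WT libraries by SAG24 and mesophyll markers, and the shares of AT3G10090 and RPS28 in S28, were likewise picked out afterwards. Alternatives were other scalings, DESeq2 1.42.0, all genes with a count, only the groups compared, a replicate block, thinned counts, organelle genes left out and each library left out. No scaling factors and voom with a variance per group were added after the data were seen. Same-numbered libraries were not treated as pairs, and the labels do not say whether a number marks a batch. Of 30 correlations of their deviations, 6 exceeded 0.1.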

Additional observations from a re-analysis of the deposited data

Results flagged for a closer look

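In WT at 45 DAS, replicate 5 lay far below the other 4 libraries for the percent of counts in all members (0.464%), in large-subunit genes (0.272%), in small-subunit genes (0.164%) and in stalk genes (0.0213%). The same library was lowest and apart for AT1G08360 (L10a, 91.3 CPM), AT2G33370 (L23, 25.8 CPM) and RPS5A (131 CPM). In the mutant at 25 DAS, replicate 3 lay below the rest for AT5G02870 (L4, 361 CPM) and RPS6 (322 CPM), and replicate 2 for AT2G37190 (L12, 166 CPM). In WT at 25 DAS, replicate 4 lay above the rest for AT1G34030 (S18, 223 CPM). In the mutant at 45 DAS, replicate 2 did so for AT3G09200 (P0, 122 CPM). In all, 12 of 176 groups of 5 libraries had such a library, and chance gives about 1 in 20. The age change of SAG24 differed between the genotypes, by -0.86 on the log2 scale (edgeR adjusted p = 0.0305).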

How the results depend on the processing

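The medians and the counts of members that fell with age kept their direction under every alternative run. With no scaling factors the median log2 fold change of the members was -1.55 in the mutant and -1.44 in WT, 1 member was called higher with age in WT, and the change of AT3G10090 in the mutant (0.24) and of SAG24 in WT (0.22) turned positive; this scaling raised the median of all genes by about the same amount, to 0.75 and 0.72. At 45 DAS DESeq2 called 1 member higher in the mutant, where 3.67% of all genes it tested were. With only the groups compared 0 were called lower, where 1.89% of all genes tested were. At 25 DAS 13 members were called higher with only the groups compared, 9 with DESeq2 and 7 with voom; the cause was not tested. DESeq2 called 3 members in the interaction, all with a negative difference, where 2.83% of all genes it tested were called in that direction. The value of AT2G33370 at 25 DAS lay at 0 and turned negative with DESeq2 size factors (-0.00048), upper-quartile scaling (-0.015), no scaling factors (-0.024), all genes with a count (-0.018), only the groups compared (-0.032) and thinned counts (-0.058), and ranged from -0.061 to 0.070 with single libraries left out. On thinned counts the families whose share passed numbered 0 between genotypes at 45 DAS and 1 at 25 DAS.

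With each library left out in turn, 56 to 57 members fell in the mutant and 56 in WT. Those called higher in the mutant numbered 0 to 3 at 45 DAS (3 without WT replicate 1 of 45 DAS) and 0 to 2 at 25 DAS (2 without WT replicate 5 of 45 DAS), and those called in the interaction 0 to 1. The shares of all genes called in these fits are not given here. The median age change ranged from -2.27 to -2.21 in the mutant and from -2.21 to -2.08 in WT. The median at 45 DAS ranged from 0.02 to 0.13, at 25 DAS from 0.16 to 0.20, and in the interaction from -0.17 to -0.051. Families whose share passed numbered 11 to 14 in the mutant, 13 to 14 in WT, 0 to 2 at 45 DAS and 1 to 3 at 25 DAS. The labels do not say whether same-numbered libraries were handled together. Correlations of their deviations ran from -0.23 to 0.36, with a median of 0.02, and pairs with different numbers were not compared. Between mutant and WT at 45 DAS they were 0.36, 0.20 and 0.21 for replicates 1, 4 and 5, and 0.018 and 0.035 for replicates 2 and 3. The replicate block changed no count of members called (57 and 56 fell with age). It moved the calls among all genes at 25 DAS to 598, against 459 without it. Depth kept AT2G40010 and RPSAb out of the tests, and RPL10B rested on 16 counts in WT at 45 DAS.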
